A study of Mus musculus with 8 samples.

Results

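The transforming growth factor beta (TGF-beta) superfamily was followed through its ligands, receptors and SMAD proteins in tumours of the mouse prostate line TRAMP-C2. Its members were chosen by gene symbol alone, as the Tgfb, Bmp, Gdf, inhibin and activin ligand genes, the Tgfbr, Bmpr and Acvr receptor genes and the Smad genes, which gave 50 of the 24028 Entrez genes in the deposited tables. The symbols took in 28 ligand genes, 12 receptor genes, 8 SMAD genes and 2 genes that belong to none of these classes, the metalloproteinase gene Bmp1 and the kinase gene Bmp2k.

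The study measured bulk mRNA in 8 tumours, 4 from aged hosts (20 to 24 months old) and 4 from young hosts (4 months old). Both groups were male C57BL/6 mice, given the same number of TRAMP-C2 cells in the dorsolateral prostate, and tumours were taken 30 to 45 days later. TRAMP-C2 is an established prostate adenocarcinoma line from a TRAMP transgenic mouse, and the host cells within each tumour were sequenced together with the injected cells. Tumours are named by host age and mouse number, which were 46, 47, 50 and 51 for aged hosts and 36, 37, 40 and 43 for young hosts, and lists of 4 values follow that order.

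Superfamily ligands are secreted dimers that bring type II and type I receptor kinases together, and the type I receptor then phosphorylates a receptor-activated SMAD. TGF-beta and activin signal mainly through Smad2 and Smad3, bone morphogenetic proteins (BMPs) through Smad1, Smad5 and Smad9, and all of them share Smad4, while Smad6 and Smad7 inhibit the pathway. In the normal prostate TGF-beta from the stroma restrains epithelial growth, and in carcinomas it is known for acting on fibroblasts, vessels and immune cells as well.

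The libraries held 27054498 to 35729488 fragments, at which 3 fragments correspond to 0.084 to 0.111 FPM, the fragment count scaled to the total of its tumour. Epithelial transcripts varied between tumours of the same group, with the 8 epithelial markers summing to 73.5 to 715 FPM in aged and 53.5 to 305 FPM in young tumours, and the epithelial adhesion gene Epcam as low as 0.7 FPM in young 43. Seminal vesicle and prostate gland markers summed to 27110 FPM in aged 50, 34330 FPM in young 36 and 11110 FPM in young 37, and to at most 193 FPM in the other 5 tumours. Aged 46 had the lowest sum of 8 fibroblast markers, 449 FPM, against 798 to 1341 FPM in the other aged tumours and 952 to 1481 FPM in young tumours. Aged 51 had the highest sums of adipocyte markers (432 FPM) and of skeletal muscle markers (131.5 FPM). In bulk RNA, fewer cells of a type and less RNA per cell cannot be told apart.

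Of the 50 genes, 41 passed the filter on low counts, with median levels from 0.041 FPKM (Acvr1c) to 72.4 FPKM (Tgfbr2). Levels are compared between genes in FPKM, which is FPM per kilobase of transcript. Tgfbr2, the type II receptor of TGF-beta, was highest over the 8 tumours, above 93.6% of all tested genes. Bmp1, whose product trims procollagens and activates latent growth factors, followed with 40.1 FPKM, then Tgfb1 with 35.1 FPKM, Smad4 with 27.5 FPKM and Tgfb3 with 18.5 FPKM. In total 28 members had a median of at least 1 FPKM and 11 of at least 10 FPKM. The BMP and GDF (growth and differentiation factor) ligands were mostly low, and only Bmp4, Gdf3, Gdf11 and Bmp2 of the 20 had such a median of 1 FPKM or more. Others passed 1 FPKM in some tumours only. Gdf10 did so in aged 47, aged 50 and young 40 (2.16, 6.56 and 3.26 FPKM). Bmp7 did so in aged 47, aged 50 and young 36 (1.09, 6.14 and 1.415 FPKM).

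**Figure D1:**
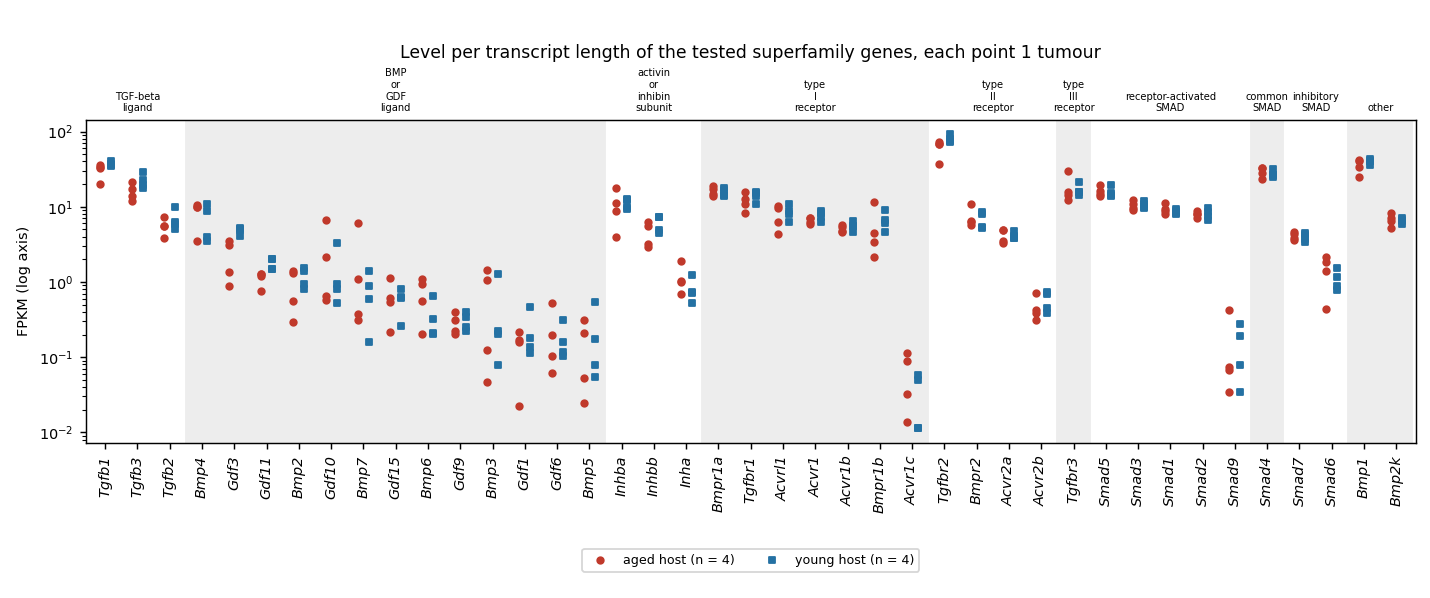
Level of each of the 41 tested genes in FPKM (log axis), with 1 point for each of the 4 aged-host tumours (circles) and 4 young-host tumours (squares), grouped by role; values of 0 cannot be drawn. Tgfbr2 has the highest median, 72.4 FPKM, and most BMP and GDF ligands have medians under 1 FPKM.

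No member passed the test between host ages. By edgeR's quasi-likelihood test 0 of the 41 tested members passed a Benjamini-Hochberg adjusted p of 0.05, as did 0.0% of the 14575 genes tested, and the smallest adjusted p of a member was 0.923. DESeq2 and limma voom also called 0 members, although over all genes they called 43 (0.295%) and 9 (0.0617%). At an unadjusted p of 0.05, edgeR gave 3 members (Gdf3, Gdf11 and Tgfb3), or 7.32% of those tested, where it gave 4.99% of all tested genes. All 3 had the lower level in aged tumours, the direction that 2.66% of all genes had at that threshold, while 2.34% had the other. Of the 41 members 21 had fold changes above 0 and 20 below 0, with a median log2 fold change (aged minus young) of 0.0068, against 0.03 over all tested genes. Without aged 50 it was 14 above and 27 below with a median of -0.15, and without aged 51 it was 16 above and 26 below with a median of -0.08. Without both aged 50 and young 36 it was 16 above and 25 below with a median of -0.16. Without young 37 it was 18 above and 23 below with a median of -0.08.

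In 3 members (Tgfbr2, Gdf3 and Gdf11) every aged tumour lay below every young tumour, which is 7.32% of those tested. Of all tested genes, 1.95% had aged tumours below young ones without overlap, 1.45% had them above, and 3.4% were apart in either direction. No tested member had all aged tumours above all young ones.

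**Figure D2:**
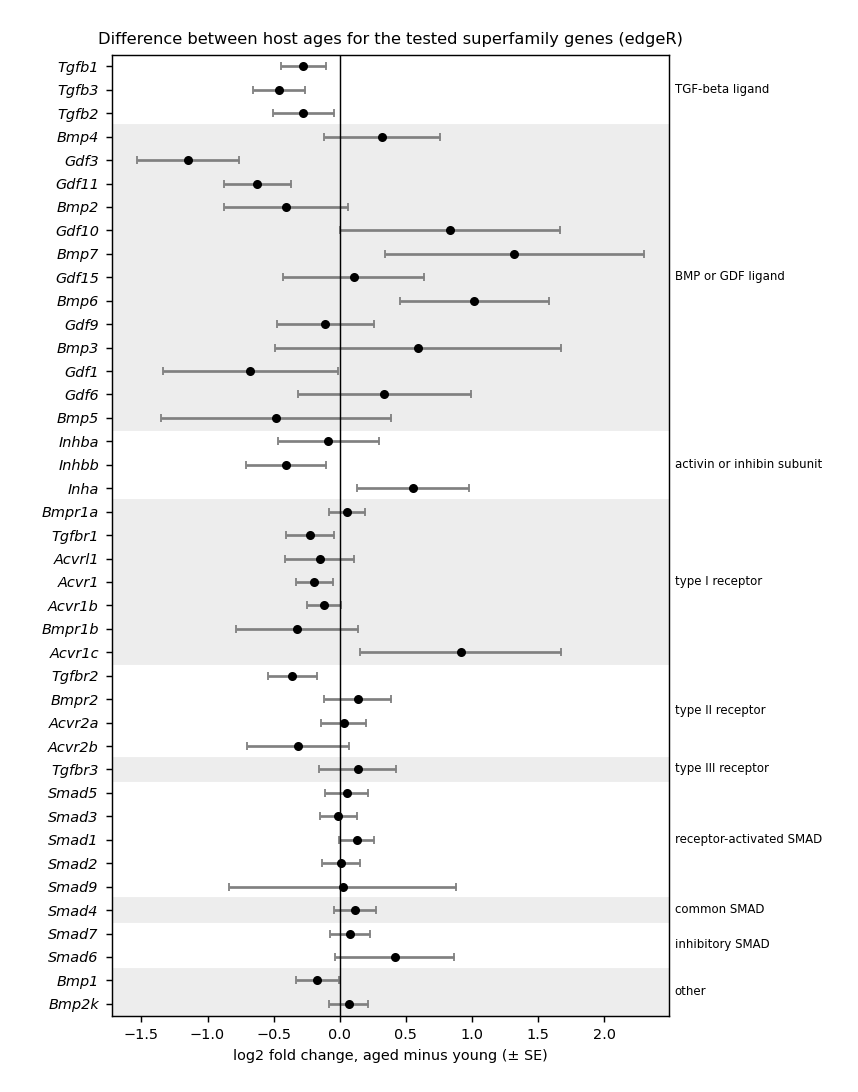
Log2 fold change of each tested member, aged minus young, with its standard error from edgeR, in blocks by role from ligands at the top to SMADs near the bottom. The 3 TGF-beta ligands all lie below 0 (-0.28, -0.46 and -0.27 for Tgfb1, Tgfb3 and Tgfb2), the abundant SMADs lie close to 0, and the widest bars belong to BMP and GDF ligands.

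The 3 TGF-beta ligand genes all had lower mean levels in aged tumours, and none passed the test. Tgfb1, the main isoform of immune and stromal cells, had 75.4, 68.0, 69.8 and 41.7 FPM in aged tumours, against 72.1, 75.0, 86.1 and 77.7 FPM in young tumours. The groups overlapped, and aged 51 stood lowest of the 8. The log2 fold change of Tgfb1 was -0.28 ± 0.17 (SE), -0.13 without aged 51 and -0.40 without aged 46.

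Tgfb3, an isoform prominent in stroma, had 40.8, 46.4, 71.2 and 58.2 FPM in aged tumours, against 65.1, 77.7, 97.1 and 60.3 FPM in young tumours. Aged 46, aged 47 and aged 51 lay below all young tumours, while aged 50 lay among them. Its log2 fold change was -0.46 ± 0.20 (SE), with an unadjusted p of 0.045 and an adjusted p of 0.923 by edgeR's quasi-likelihood test. Exons of Tgfb3 share 257 and 163 bases with 2 transcripts of the opposite strand (GENCODE vM21), and whether counting used strand is not stated in the sources used here.

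Tgfb2, the isoform most dependent on the co-receptor betaglycan, had 18.7, 26.3, 35.1 and 27 FPM in aged tumours, against 24.2, 29.9, 48.3 and 28.4 FPM in young tumours. Young 40 was highest and aged 46 lowest, and the groups overlapped, with a log2 fold change of -0.27 ± 0.23 (SE). It was -0.049 without young 40, -0.16 without aged 46 and -0.40 without aged 50. All 3 TGF-beta ligand genes kept fold changes below 0 in each of the 18 alternative analyses, none of which called any of them. Their median was -0.28, and over the alternatives it ran from -0.51 (without both aged 50 and young 36) to -0.24 (without young 40).

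By transcript per length the ligands kept 1 order in all 8 tumours, Tgfb1 above Tgfb3 above Tgfb2. Tgfb1 made up 58.2% ± 9.95 of the summed FPKM of the 3 genes in aged tumours, against 56.6% ± 4.18 in young tumours (SD, n = 4 per group). Tgfb3 made up 31.0% ± 7.67 in aged and 33.3% ± 3.03 in young tumours, while Tgfb2 made up 10.8% ± 2.41 in aged and 10.1% ± 1.73 in young tumours. The group means differed by less than the SD within either group. The share of Tgfb1 ran from 46.6% in aged 51 to 69.3% in aged 46, so the aged tumours held both ends of the range.

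Among the BMP and GDF ligands, Gdf3 and Gdf11 had the lower levels in aged tumours and the smallest unadjusted p-values of the superfamily. Gdf3, a ligand related to nodal that is best known from the early embryo, had 2.85, 7.28, 6.45 and 1.85 FPM in aged tumours, against 10.6, 10.9, 10.2 and 8.56 FPM in young tumours. The young tumours were close together and the aged ones lay 3.93-fold apart, with aged 46 and aged 51 lowest. Aged tumours averaged 4.61 ± 2.66 FPM, and young tumours 10.1 ± 1.04 FPM (SD, n = 4 per group). The log2 fold change was -1.15 ± 0.39 (SE), with an unadjusted p of 0.0161 and an adjusted p of 0.923 by edgeR's quasi-likelihood test. The gene (Entrez 14562) lies on GRCm38 chromosome 6 from 122605403 to 122610087. The 8 macrophage markers had sums of 1265, 2742, 2488 and 1920 FPM in aged tumours and 2657, 2625, 2725 and 1915 FPM in young tumours. Of these markers Adgre1, Cd68 and Fcgr1 were lowest in aged 46 and aged 51, the tumours lowest in Gdf3, while Mrc1 and Cd14 were highest in aged 51. Adgre1, which encodes the macrophage antigen F4/80 and was chosen after its values were seen, had 89.8, 199, 212 and 75.8 FPM in aged tumours, against 224, 204, 235 and 194 FPM in young tumours. The part of macrophage content in the Gdf3 difference was not tested.

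Gdf11, a close relative of myostatin, had 4.34, 4.30, 4.10 and 2.55 FPM in aged tumours, against 5.06, 4.99, 6.76 and 6.91 FPM in young tumours. The groups did not overlap, and aged 51 stood apart below the other aged tumours. Aged tumours averaged 3.82 ± 0.85 FPM, and young tumours 5.93 ± 1.05 FPM (SD, n = 4 per group). Its log2 fold change was -0.62 ± 0.25 (SE) with an unadjusted p of 0.0348 and an adjusted p of 0.923 by edgeR's quasi-likelihood test. The gene (Entrez 14561) lies on chromosome 10 from 128880524 to 128891718.

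Bmp4, a ligand that shapes prostate budding in the embryo, was the most abundant BMP ligand with a median of 9.32 FPKM. It had 7.03, 21.1, 19.6 and 19.7 FPM in aged tumours, against 17.6, 7.80, 21.6 and 6.997 FPM in young tumours. Aged 46, young 37 and young 43 stood at 7.80 FPM or less and the other 5 tumours between 17.6 and 21.6 FPM, so both groups held low and high tumours. The log2 fold change was 0.32 ± 0.44 (SE), and with single tumours left out it ran from 0.10 (without young 43) to 0.61 (without young 40).

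Bmp7 and Bmp6 had fold changes above 0 with wide errors. Bmp7, a ligand of kidney and gland development, had 1.52, 4.39, 24.7 and 1.26 FPM in aged tumours, against 5.69, 2.37, 3.60 and 0.64 FPM in young tumours. Aged 50 stood far above every other tumour, and the log2 fold change of 1.32 ± 0.98 (SE) went to -0.37 without it. Aged 50 also had the highest sums of smooth muscle markers (703 FPM, against 81.5 to 310 FPM in the other aged tumours and 138 to 544 FPM in young tumours) and of epithelial markers (715 FPM). The tumours highest in Bmp7, aged 50 and young 36, were also those with the highest seminal vesicle and prostate gland sums, 27110 and 34330 FPM. Young 37, with the next highest gland sum (11110 FPM), had less Bmp7 than aged 47 and young 40, whose gland sums were 46.14 and 21.35 FPM. The part of those cells in the Bmp7 value was not tested. Bmp6, a ligand known for the control of iron through hepcidin, had 0.50, 2.23, 2.67 and 1.36 FPM in aged tumours, against 0.49, 0.78, 1.56 and 0.50 FPM in young tumours. The groups overlapped, and the log2 fold change was 1.019 ± 0.56 (SE). Exons of Bmp6 share 224 bases with the protein-coding gene Txndc5 on the opposite strand. Bmp6 had only 14 to 95 fragments per tumour, so its level and fold change are uncertain.

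The remaining BMP and GDF ligands were low and uneven. The tested ones (Bmp2, Gdf10, Gdf15, Gdf9, Bmp3, Gdf1, Gdf6 and Bmp5) had log2 fold changes of -0.68 (Gdf1) to 0.84 (Gdf10), with standard errors of 0.37 to 1.09. Gdf10 and Bmp3, chosen after their values were seen, were both highest in aged 50 (16.5 and 5.75 FPM), with the next highest in young 40 (8.18 and 5.03 FPM) and aged 47 (5.41 and 4.23 FPM). The same 3 tumours had the 3 highest smooth muscle marker sums, 703 FPM in aged 50, 544 FPM in young 40 and 310 FPM in aged 47. They also had the 3 highest sums of fibroblast markers (1341, 1481 and 1170 FPM in that order), of T cell markers (92.2, 64.9 and 58.3 FPM) and of osteoblast markers (15.01, 11.9 and 13.3 FPM), and the part of those cells was not tested. Gdf15, a stress-induced ligand often abundant in carcinomas, stood at 0.23 to 1.23 FPM in aged and 0.28 to 0.89 FPM in young tumours. Exons of Gdf1 share 1349 bases on the same strand with Cers1, so fragments of these genes may have been split or shared.

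The 7 untested ligands of this class (Gdf2, Gdf5, Gdf7, Bmp8a, Bmp8b, Bmp10 and Bmp15) and the untested activin subunit genes Inhbc and Inhbe had at most 26 fragments in any tumour. Inhbc had 0 fragments in all 8 tumours, which allows up to 0.084 to 0.111 FPM by counting error alone. Bmp8a and Bmp8b are near-identical neighbours, and their counts are uncertain.

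Of the activin and inhibin genes, Inhba and Inhbb were the abundant ones. Inhba, the subunit of activin A, had 27.3, 13.5, 17.2 and 6.19 FPM in aged tumours, against 18.9, 14.6, 20.0 and 15.6 FPM in young tumours. The aged tumours held both the highest and the lowest value, and the log2 fold change was -0.09 ± 0.38 (SE), -0.52 without aged 46 and 0.18 without aged 51. Inhbb, the subunit of activin B, had 23.7, 27.1, 12.3 and 13.7 FPM in aged tumours, against 31.5, 30.7, 19.1 and 20.8 FPM in young tumours. Its groups overlapped, with a log2 fold change of -0.41 ± 0.30 (SE). The fold change was -0.23 without aged 50, -0.26 without young 36 and -0.59 without aged 47. Inha, the subunit that turns activins into inhibins, stood at 1.022 to 2.81 FPM in aged and 0.78 to 1.79 FPM in young tumours.

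Among the receptors, Tgfbr2 was the most abundant and the only one whose groups did not overlap. It had 179.8, 344, 326 and 331 FPM in aged tumours, against 349.5, 355, 440.3 and 376 FPM in young tumours. The gap between the groups was narrow, from 344 FPM in aged 47 to 349.5 FPM in young 36, and aged 46 stood far below the rest. Aged tumours averaged 295 ± 77.4 FPM, and young tumours 380.2 ± 41.6 FPM (SD, n = 4 per group). The log2 fold change of Tgfbr2 was -0.36 ± 0.19 (SE) with an unadjusted p of 0.0876 and an adjusted p of 0.923 by edgeR's quasi-likelihood test. Without aged 46 it was -0.20, and without aged 51 it was -0.45. Aged 46 had the lowest sums of fibroblast, macrophage, endothelial, smooth muscle, T cell, adipocyte, skeletal muscle and osteoblast markers of any tumour. It had the highest sum of erythrocyte markers. The part of those cells in the Tgfbr2 value was not tested. The gene (Entrez 21813) lies on chromosome 9 from 116087695 to 116175363.

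The sequences before the starts of Tgfbr2 and Gdf11 are shown because these members had no overlap between the groups and have a promoter entry in RefSeq (GRCm38.p6). Each is the 250 bases upstream of the start, on the gene's own strand (minus for both), at chr9:116175364-116175613 for Tgfbr2 and chr10:128891719-128891968 for Gdf11. Capitals mark matches, on either strand, to any of 5 motifs. The SMAD box was searched as CAGAC. The GC box was searched as GGGCGG. The cyclic AMP element was searched as TGACGTCA. The TATA and CCAAT boxes were searched as TATAAA and as the letters of the name.
Tgfbr2: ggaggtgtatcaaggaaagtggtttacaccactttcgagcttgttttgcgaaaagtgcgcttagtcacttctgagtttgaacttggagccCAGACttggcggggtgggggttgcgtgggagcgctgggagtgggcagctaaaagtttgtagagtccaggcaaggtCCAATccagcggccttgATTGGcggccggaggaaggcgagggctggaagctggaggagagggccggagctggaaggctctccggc
Gdf11: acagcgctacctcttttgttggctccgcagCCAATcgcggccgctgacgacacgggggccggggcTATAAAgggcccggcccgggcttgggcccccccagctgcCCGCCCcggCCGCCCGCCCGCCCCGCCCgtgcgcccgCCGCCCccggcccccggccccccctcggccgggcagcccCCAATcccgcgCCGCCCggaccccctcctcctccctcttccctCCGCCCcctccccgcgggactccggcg
The Tgfbr2 window holds 1 SMAD box, 160 bases before the start, and 2 CCAAT boxes, with no match to the other 3 motifs. The Gdf11 window holds 1 TATA box, 2 CCAAT boxes and 8 GC boxes, some of which overlap each other. Of 32851 RefSeq promoter windows of the same length, 42.2% hold a SMAD box, 33.8% a CCAAT box, 32.7% a GC box, 12.4% a TATA box and 1.55% the cyclic AMP element. GC content was 58.4% for Tgfbr2 and 81.2% for Gdf11, against a median of 52.4% over all windows and of 63.4% over 44 windows of 36 members. A match describes letters in the window and no binding was measured.

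The groups overlapped for the other TGF-beta receptors. Tgfbr1, the type I receptor that TGF-beta signals through, had 49.2, 76.3, 92.2 and 64.8 FPM in aged tumours, against 82.3, 63.7, 90.9 and 93.7 FPM in young tumours, a log2 fold change of -0.22 ± 0.18 (SE) that was -0.11 without aged 46 and -0.35 without aged 50. Tgfbr3, which encodes betaglycan, had 74.0, 96.4, 86.1 and 183 FPM in aged tumours, against 87.1, 95.8, 94.7 and 129.8 FPM in young tumours. Aged 51 was highest, and the log2 fold change of 0.13 ± 0.29 (SE) went to -0.27 without it. Exons of Tgfbr3 share 297 bases on the same strand with the transcript Gm43422, so its count is uncertain to that extent. Aged 51 was also the tumour with the highest adipocyte and skeletal muscle marker sums, whose part was not tested. Of the summed FPKM of the 3 receptors, Tgfbr2 made up 67.2% ± 4.09 in aged tumours, against 72.2% ± 3.04 in young tumours (SD, n = 4 per group).

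The BMP receptors were led by Bmpr1a, a widely used type I receptor, with 78.5, 81.8, 96.1 and 104.9 FPM in aged tumours and 79.5, 78.6, 93.5 and 99.6 FPM in young tumours. Its values spanned only 1.34-fold, the narrowest spread of any receptor, and the log2 fold change was 0.06 ± 0.14 (SE). Bmpr2, the type II receptor of BMPs, had 68.7, 63.5, 72.4 and 120.2 FPM in aged tumours, against 57.8, 59.95, 88.4 and 95.2 FPM in young tumours, with a log2 fold change of 0.14 ± 0.25 (SE) that was -0.15 without aged 51. Acvr1, a type I receptor for BMPs and activins, had 20.9, 19.3, 23.6 and 23.5 FPM in aged tumours, against 20.9, 24.0, 27 and 29.0 FPM in young tumours. The groups overlapped and the log2 fold change was -0.19 ± 0.14 (SE).

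The other tested receptors were Acvrl1, the endothelial receptor of circulating BMPs, with Acvr1b, Acvr1c, Bmpr1b, Acvr2a and Acvr2b. Their log2 fold changes ran from -0.32 (Bmpr1b and Acvr2b) to 0.91 (Acvr1c, which had at most 1.04 FPM). Acvrl1 stood at 16.4 to 39.2 FPM in aged and 23.4 to 40.7 FPM in young tumours. Bmpr1b varied 5.4-fold, from 12.4 FPM in aged 46 to 67.0 FPM in aged 50, with 26.8 to 53.6 FPM in young tumours.

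The SMAD genes other than Smad9 and Smad6 were steady between tumours, with the highest tumour 1.36 to 1.45 times the lowest. Smad5 had 120.1, 109.3, 101.9 and 142.5 FPM in aged tumours, against 102.8, 106.8, 112.0 and 142.4 FPM in young tumours. Smad3 had 62.9, 48.6, 55.3 and 45.5 FPM in aged tumours, against 50.96, 49.2, 55.9 and 60.1 FPM in young tumours. Smad4, the shared partner, had 115.1, 100.6, 83.9 and 115.8 FPM in aged tumours, against 94.2, 88.8, 92.4 and 113.6 FPM in young tumours. The groups overlapped for each of them, and the log2 fold changes were 0.05 ± 0.16 for Smad5, -0.0096 ± 0.14 for Smad3 and 0.11 ± 0.16 for Smad4 (SE). Smad1 and Smad2 had log2 fold changes of 0.13 ± 0.13 and 0.0068 ± 0.14 (SE).

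Of the inhibitory SMADs, Smad7, a target and inhibitor of TGF-beta signalling, had 17.2, 16.1, 20.6 and 19.5 FPM in aged tumours, against 19.7, 15.1, 18.8 and 16.4 FPM in young tumours, a log2 fold change of 0.08 ± 0.15 (SE). Smad6, the inhibitor of BMP signalling, had 1.30, 5.41, 6.42 and 4.20 FPM in aged tumours, against 3.47, 2.62, 4.51 and 2.32 FPM in young tumours. Aged 46 was lowest and aged 50 highest of all 8, and the log2 fold change was 0.42 ± 0.45 (SE), 0.19 without aged 50 and 0.71 without aged 46. Smad9 stood at 0.19 to 2.30 FPM in aged and 0.18 to 1.49 FPM in young tumours. By summed FPKM of the 5 receptor-activated SMADs, Smad5 made up 36.4% ± 4.86 in aged and 36.2% ± 1.77 in young tumours (mean ± SD over 4). Smad3 made up 23.8% ± 2.69 in aged and 24.7% ± 0.76 in young tumours.

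How far the 8 tumours lay apart was described for each class. The ratio of the highest to the lowest of the 8 tumours had a median of 1.4 over all 8 SMADs, 2.22 over the 12 receptors and 5.2 over the 19 tested ligands, against 1.87 over all tested genes. Most of the ligands were also among the members with the fewest fragments, and the part of depth in this order was not tested. Among ligands with at least 187 fragments in every tumour the ratio was 2.06 for Tgfb1, 2.38 for Tgfb3 and 2.58 for Tgfb2. In the same set it was 2.56 for Inhbb, 3.09 for Bmp4 and 4.41 for Inhba. Gdf3, with 56 to 307 fragments, had a ratio of 5.86. Of the 41 members, aged 46 held the lowest value for 18, or 43.9%, while it held the lowest value of 23.5% of all tested genes. Aged 50 held the highest value for 12 members, or 29.3%, against 22.7% of all tested genes.

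**Figure D3:**
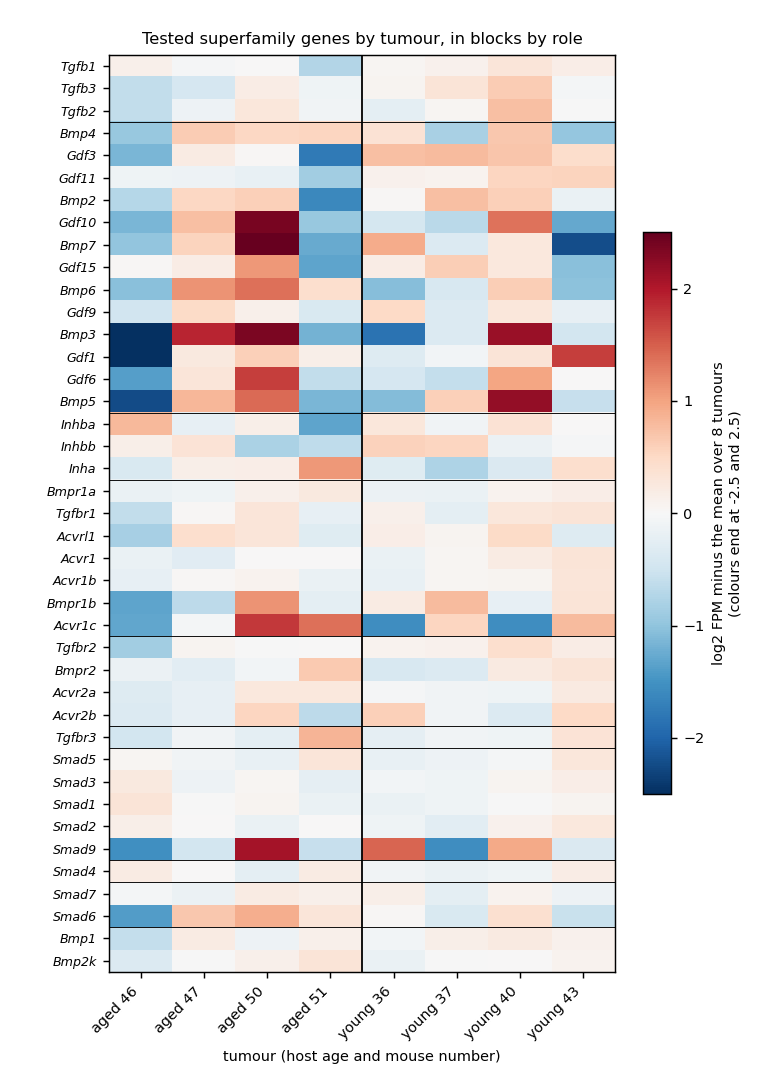
Each tested member (rows, in blocks by role) in each tumour (columns, aged hosts left of the line and young hosts right), as log2 FPM minus the member's mean over the 8 tumours; a member at 0 in a tumour would be blank. Aged 46 holds the lowest value of 18 of the 41 members and aged 50 the highest of 12, and the rows of Smad1 to Smad5 are nearly flat.

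The genes matched by symbol outside the classes overlapped between groups. Bmp1 had 147, 255, 202 and 242 FPM in aged tumours, against 213, 246, 258 and 240.1 FPM in young tumours, with a log2 fold change of -0.17 ± 0.16 (SE) that was -0.049 without aged 46. Bmp2k, an endocytic kinase induced by Bmp2 in bone cells, had 39.6, 49.9, 55.1 and 62.8 FPM in aged tumours, against 45.3, 49.8, 51.01 and 53.5 FPM in young tumours. Exons of Bmp2k share 1185 bases with the protein-coding gene Paqr3 on the opposite strand, so its count is uncertain.

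**Figure D4:**
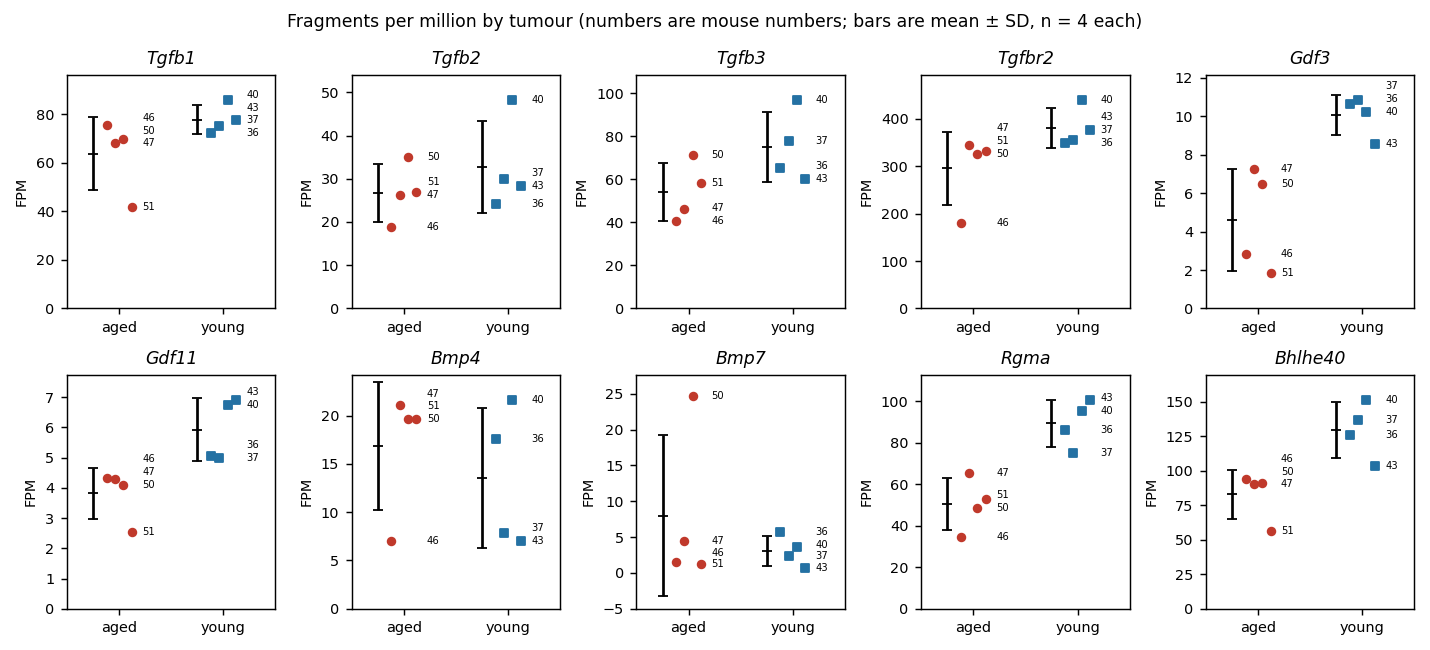
FPM of 10 genes in each tumour, aged hosts left of young hosts, with mouse numbers listed beside the points in order of level and bars for the mean ± SD (n = 4 each); the last panels are the co-receptor gene Rgma and the response gene Bhlhe40. For Tgfbr2, Gdf3, Gdf11, Rgma and Bhlhe40 all aged tumours lie below all young tumours, and Bmp7 stands at 24.7 FPM in aged 50, above all other tumours.

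Genes that act around the ligands and receptors were read from 7 lists. By edgeR's quasi-likelihood test 0 of their tested genes passed the adjusted threshold in either direction, and DESeq2 called 1, Rgma. Only Rgma, Bhlhe40, Ctgf and Ppm1a had an unadjusted p under 0.05 by edgeR. They were 2 of 12 tested TGF-beta response genes, 1 of 4 co-receptor and decoy receptor genes and 1 of 13 intracellular regulators. The other lists had 0 of 7, 11, 14 and 1 tested genes. Of all tested genes 4.99% had such a p. Among the tested list genes only Rgma and Bhlhe40 had groups without overlap, a share no higher than the 3.4% of all tested genes. The co-receptor Rgma, which binds BMPs and presents them to their receptors, had 34.7, 65.6, 48.7 and 52.6 FPM in aged tumours, against 86.3, 74.9, 95.2 and 100.6 FPM in young tumours. The groups did not overlap, and aged tumours averaged 50.4 ± 12.7 FPM, against 89.2 ± 11.2 FPM in young tumours (SD, n = 4 per group). The log2 fold change was -0.82 ± 0.18 (SE), with an adjusted p of 0.773 by edgeR's quasi-likelihood test and of 0.0115 by DESeq2, where DESeq2 called 0.295% of all genes. Over the 18 alternatives its adjusted p ran from 0.0115 to 0.997. Rgma shares 258 exon bases with an antisense transcript, so part of its count could come from that strand. Its paralogue Rgmb had 31.2, 25.7, 24.2 and 18.7 FPM in aged tumours, against 33.2, 24.3, 33.0 and 33.4 FPM in young tumours. Of the 4 tested co-receptor and decoy receptor genes 3 had fold changes below 0, with a median of -0.22. The median was -0.11 without aged 51 and -0.34 with 4 of 4 below 0 without aged 50, and under limma voom it was -0.08 with 2 of 4 below 0.

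Response genes of TGF-beta mostly had fold changes below 0 and those of BMPs had them above 0, and none passed the test. Of 12 TGF-beta response genes 10 lay below 0, where 44.7% of all tested genes did, with a median log2 fold change of -0.16, against 0.03 over all tested genes. Bhlhe40, a transcription factor that TGF-beta and hypoxia induce, had 94.0, 90.04, 91.0 and 56.0 FPM in aged tumours, against 126, 137, 151 and 104 FPM in young tumours. The groups did not overlap, and its log2 fold change was -0.64 ± 0.18 (SE), with an unadjusted p of 0.00629 and an adjusted p of 0.923 by edgeR's quasi-likelihood test. Bhlhe40 shares 118 exon bases with an antisense transcript, so its count is uncertain to that extent. The exception with the largest size was Ctgf, which encodes a secreted protein. It had 63.1, 125, 88.6 and 242 FPM in aged tumours, against 48.7, 77.3, 55.3 and 42.2 FPM in young tumours. Aged 46 lay below young 37, and the log2 fold change of Ctgf was 1.24 ± 0.40 (SE), with an adjusted p of 0.923 by edgeR's quasi-likelihood test, and 0.70 without aged 51.

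All 7 BMP response genes had fold changes above 0, where 8060 of the 14575 tested genes did. Their median was 0.57, against 0.03 over all tested genes, and the groups overlapped for each. Id1, a transcription regulator that BMPs induce directly, had 5.98, 20.1, 20.2 and 14.9 FPM in aged tumours, against 10.99, 7.17, 13.6 and 5.09 FPM in young tumours, a log2 fold change of 0.72 ± 0.40 (SE). Msx1, a homeobox gene downstream of BMPs, had 0.62, 0.82, 1.40 and 0.50 FPM in aged tumours, against 0.31, 0.67, 0.73 and 0.17 FPM in young tumours. The other members were the Id2, Id3 and Id4 genes with Msx2 and Atoh8, at 0.32 to 0.98 with standard errors of 0.36 (Id3) to 1.00 (Msx2). The median of 0.57 was the value of Id4, whose standard error was 0.97. Some counts were low, with Id4 at 0.19 FPM in aged 46 and Msx2 at 0.084 FPM in young 43. Under a stricter filter on low counts 5 genes were tested, 5 lay above 0 and the median was 0.55. Without aged 50 the median of the list went to 0.18 and without both aged 50 and young 36 to 0.16, each with 6 of 7 above 0. Without aged 46 it went to 0.94 with 7 of 7 above 0. Without young 40 it also went to 0.94. The median of the TGF-beta response genes was -0.07 with 10 of 12 below 0 when young 40 was left out, and 7 of 12 lay below 0 when aged 50 was. On the log2(FPM + 1) scale of limma trend the median was -0.26. Aged 47, aged 50 and young 40 had the highest levels of every BMP response gene except Id1. The same tumours had the highest sums of smooth muscle, fibroblast, T cell and osteoblast markers, whose part was not tested.

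**Figure D5:**
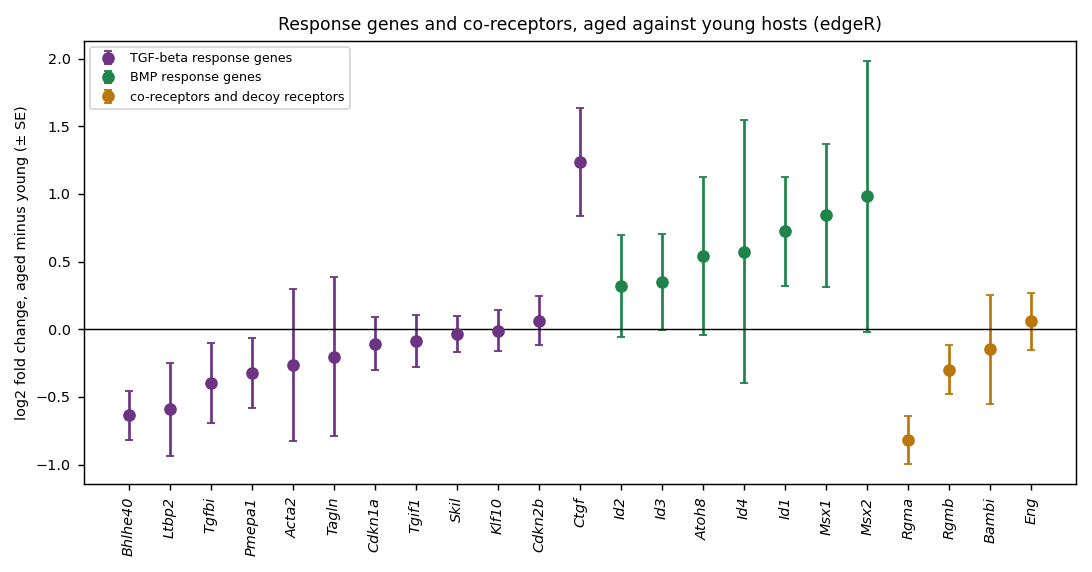
Log2 fold change, aged minus young, with its standard error from edgeR, for 12 TGF-beta response genes, 7 BMP response genes and 4 co-receptor or decoy receptor genes, each ordered by fold change. Of the TGF-beta response genes 10 lie below 0 and Ctgf stands highest at 1.24, while all 7 BMP response genes lie above 0 and Rgma lies at -0.82.

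The genes that store, release or block the ligands had overlapping groups throughout. Of 11 genes of latency and activation, 4 had fold changes above 0 and 7 below, with a median of -0.09 that was 0.02 without aged 46. Ltbp4, a matrix protein that binds latent TGF-beta, had 125, 248, 249 and 213 FPM in aged tumours, against 248, 241, 299 and 336 FPM in young tumours, with aged 46 far below the rest. Nrros, which anchors latent TGF-beta on myeloid cells, had 28.0, 48.7, 52.7 and 27.2 FPM in aged tumours, against 47.3, 52.7, 59.2 and 43.02 FPM in young tumours. Their log2 fold changes were -0.42 ± 0.20 and -0.37 ± 0.21 (SE), and that of Ltbp4 was -0.26 without aged 46.

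Of 14 tested antagonists 5 had fold changes above 0 and 9 below, with a median of -0.12 that was 0.08 without aged 46. Grem1, a secreted BMP antagonist, had 30.3, 61.4, 5.05 and 12.04 FPM in aged tumours, against 81.3, 44.2, 84.4 and 72.9 FPM in young tumours. Only aged 47 lay within the range of young tumours, and the log2 fold change was -1.38 ± 0.63 (SE), with an adjusted p of 0.923 by edgeR's quasi-likelihood test. The fold change was -2.10 without aged 47 and -1.03 without aged 50. Chrd, which encodes the BMP antagonist chordin, had 3.44, 8.36, 6.48 and 4.80 FPM in aged tumours, against 10.8, 6.69, 9.74 and 5.68 FPM in young tumours.

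Of 13 intracellular regulators 9 had fold changes above 0 and 4 below, with a median of 0.08 that was -0.02 without aged 51. Ppm1a, a phosphatase that removes the activating phosphates of Smad2 and Smad3, had 141, 139, 113 and 199 FPM in aged tumours, against 108, 110.4, 107 and 119 FPM in young tumours. Only aged 50 lay within the range of young tumours, and the log2 fold change was 0.43 ± 0.19 (SE), with an unadjusted p of 0.0439 and an adjusted p of 0.923 by edgeR's quasi-likelihood test, and 0.23 without aged 51. Wwp1, a ubiquitin ligase of the pathway, had 53.9, 62.8, 69.3 and 75.0 FPM in aged tumours, against 54.98, 54.0, 67.7 and 50.7 FPM in young tumours.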

How the data were processed

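Bulk mRNA of 8 tumours was read as 50 bp paired ends from 1 µg of total RNA each, per the labels' protocols. Among the programs in the submitters' processing notes are TopHat2 2.0.12, Picard 2.7.1 and bcl2fastq, with GRCm38 (mm10) as the build. How fragments were assigned to genes, by what annotation and strand, was not given in the sources used here. For 24028 Entrez genes, each deposited table gives a fragment count, FPM and FPKM, per the file headers. The authors' FPM values are CPM (the count over its tumour's total), and the deposited FPKM values equal FPM per kilobase of the transcript length in the same table. 27 symbols that had turned into dates were restored by Entrez number with the help of a RefSeq table (GRCm38), which held all 50 members and also gave the coordinates. Exon overlaps came from GENCODE vM21, on the same build. They were found for 3 of the 50 members on the same strand and 14 on the opposite strand, and not all are named above.

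The test of the counts was that of edgeR 4.0.16 under R 4.3.3 (filterByExpr, minimum count 10 and total 15, TMM factors, robust quasi-likelihood fit, host age as the only term), with Benjamini-Hochberg adjustment over all 14575 genes tested and a threshold of 0.05. A standard error is the fold change over the square root of its F statistic. The procedure was tested on simulated counts with the same dispersion for every gene, which do not copy the differences in cell content between these tumours. Depth was 27054498 to 35729488 fragments per tumour, and limits from 3 fragments cover counting error only. The labels name separate mice, with no batch or pairing. Alternatives were other scalings and filters, DESeq2 1.42.0, limma 3.58.1 (voom with sample weights, and trend on log2(FPM + 1)), no robust moderation, the exclusion of aged 50 and young 36, and each tumour left out.

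The members, the lists and the naming rule were chosen with earlier results of these data known. One gene of the TGF-beta response list is not reported here, and the counts and median of that list leave it out. The rule named the TGF-beta ligands and receptors, the 2 members of each role with the highest median FPKM, the 8 members with the smallest p and the 2 genes of each list with the smallest p. Marker lists not printed elsewhere summed to 234 to 404 FPM in aged and 294 to 362 FPM in young tumours (endothelial), 15.6 to 92.2 and 19.6 to 64.9 FPM (T cell), 64.9 to 128 and 39.7 to 93.2 FPM (neutrophil), 5.11 to 15.0 and 5.96 to 11.9 FPM (osteoblast) and 61.1 to 122 and 45.8 to 85.3 FPM (erythrocyte), aged before young tumours. In each marker list, 0 genes were at 0 in every tumour and 0 passed edgeR's test.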

Additional observations from a re-analysis of the deposited data

Results flagged for a closer look

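Of 72 groups of 4 tumours examined over 36 named genes, 7 had a tumour that stood far from the others of its group by Dixon's criterion at the 95% level, where chance gives about 1 in 20. Bmp4 stood at 7.03 FPM in aged 46, against 19.6 to 21.1 FPM in the other aged tumours. Tgfbr2 stood at 179.8 FPM in aged 46, against 326 to 344 FPM. Bmp7 stood at 24.7 FPM in aged 50, against 1.26 to 4.39 FPM. Bmpr2 stood at 120.2 FPM in aged 51, against 63.5 to 72.4 FPM. Gdf11 stood at 2.55 FPM in aged 51, against 4.10 to 4.34 FPM, and Bhlhe40 at 56.0 FPM, against 90.04 to 94.0 FPM. Rgmb stood at 24.3 FPM in young 37, against 33.0 to 33.4 FPM in the other young tumours.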

How the results depend on the processing

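Over all genes, edgeR called 0 genes in each of its variants, DESeq2 called 43 and limma voom 9. The count of members called was 0 in all 18 alternatives, and the count of list genes called was 0 in all but DESeq2, which called 1. Of 647 fold changes of the 36 named genes under an alternative, 630 kept their direction and their side of the threshold, 1 passed it (Rgma by DESeq2) and 16 turned. Under voom the log2 fold change turned for Bmpr1a (-0.049), Bmpr2 (-0.079), Smad5 (-0.028), Smad7 (-0.14) and Tgfbr3 (-0.0094), and the cause was not tested. With each tumour left out in turn, it ran from -0.37 to 1.84 for Bmp7, -0.066 to 0.16 for Bmp2k, -0.049 to 0.12 for Bmpr1a, -0.15 to 0.27 for Bmpr2, -0.52 to 0.18 for Inhba, -0.13 to 0.048 for Smad3, -0.074 to 0.16 for Smad5 and -0.27 to 0.27 for Tgfbr3. Without turning, it ran from 0.035 to 0.22 for Smad4, 0.014 to 0.17 for Smad7, -0.25 to -0.12 for Acvr1, -0.46 to -0.20 for Rgmb, -0.74 to -0.33 for Chrd, 0.50 to 1.11 for Msx1 and 0.11 to 0.29 for Wwp1. The same range was -0.27 to -0.049 for Bmp1, -0.50 to -0.26 for Ltbp4 and -0.88 to -0.18 for Lefty1. It was 0.70 to 1.45 for Ctgf and 0.23 to 0.56 for Ppm1a. No paired analysis was possible because the mouse numbers of the aged and young hosts differ. At 4 tumours a group, a missed threshold does not show equal levels, and members under about 1 FPM rest on few fragments.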

Other observations

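Apart from Lefty1, the listed superfamily genes that the symbols did not take in were nearly silent. Of Nodal, Amh, Amhr2, Mstn, Lefty1 and Lefty2, only Lefty1, which encodes a nodal antagonist, passed the filter on low counts. It had 0.84, 1.87, 2.08 and 0.69 FPM in aged tumours, against 2.01, 1.59, 3.92 and 0.95 FPM in young tumours, a log2 fold change of -0.63 ± 0.51 (SE) that was -0.18 without young 40. Nodal itself had at most 1 fragment in any tumour, and Mstn, which encodes myostatin, had fragments in 2 tumours and at most 5. The GDF15 receptor gene Gfral, known from the hindbrain, had at most 3 fragments in any tumour.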
